A study of Homo sapiens with 12 samples.

Results

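MCF10DCIS, a line of the human MCF10 breast epithelial series that stands for ductal carcinoma in situ, was compared with the premalignant line MCF10AT1. The series design lists a stage transformed with HRAS G12V, a constitutively active form of the small GTPase HRAS, without naming its line. This stage was read here as MCF10AT1, because each of the other stages matches another line. MCF10DCIS and MCF10CA1a are HRAS-derived lines as well, so the allele is not to be read as a difference between the compared lines. The comparison took every gene symbol with at least 1 TPM, a level scaled for transcript length and library total, in either line, which left 12353 of the 59427 symbols in the deposited table. Each line was sequenced from total RNA in 3 libraries, 6 of the 12 libraries of the series, and the deposited value of a gene is the authors' mean over the libraries of a line. The other lines of the series, the non-tumorigenic MCF10A from which all derive and the metastatic MCF10CA1a, are given beside the comparison as levels only. All 4 lines grew in the same DMEM:F12 medium supplemented with hydrocortisone, insulin, EGF, cholera toxin, horse serum, glutamine and antibiotics, so EGF was supplied to the cells in every group. Each group is 1 established cell line, so a difference between the lines is a difference between these cultures and not between lesions of 2 stages. With only a mean per line there is no replicate check: no difference below has an SD or a p-value, and the depth behind a TPM value is unknown. A gene is counted as higher or lower in MCF10DCIS when its log2(TPM + 1) differs by at least 1, and a difference on this scale understates that of genes at low levels.

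In the MCF10 series an immortalised breast epithelial culture was carried through transformation with activated HRAS and passage in mice to give lines of increasing malignancy. Epithelial cells are held together by E-cadherin adhesions, tight junctions and desmosomes. In epithelial-mesenchymal transition, transcription factors of the SNAI, ZEB and TWIST families repress these genes while mesenchymal matrix and cytoskeletal genes are expressed. RAS signals through the ERK kinase cascade, whose output includes EGF-like ligands and the DUSP, SPRY and SPRED proteins that restrain the cascade.

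HRAS stood at 50.8 TPM in MCF10A, 126 TPM in MCF10AT1, 276 TPM in MCF10DCIS and 312 TPM in MCF10CA1a, a log2(TPM + 1) difference of 1.13 between MCF10DCIS and MCF10AT1. The other lines were thus all above MCF10A, and gene-level TPM does not separate an introduced allele from the endogenous gene. Both lines had epithelial markers: in MCF10AT1 and MCF10DCIS respectively, EPCAM was at 37.6 and 70.5 TPM, KRT5 at 592 and 643 TPM, KRT8 at 397 and 393 TPM and KRT18 at 523 and 684 TPM. The marker lists of other cell types summed to low levels. Summed over each list, the 12 fibroblast markers came to 13.5 TPM in MCF10AT1 and 3.62 TPM in MCF10DCIS, the 14 leukocyte markers to 12.1 and 6.76 TPM, the 10 endothelial markers to 1.11 and 2.16 TPM, the 7 adipocyte markers to 1.93 and 3.22 TPM, and the 10 neural and melanocyte markers to 9.40 and 14.1 TPM, mostly from MBP. The fibroblast list does not hold DCN, at 134 TPM in MCF10AT1 and 0.142 TPM in MCF10DCIS, or FN1, at 303 and 2.01 TPM. The mesenchymal genes described below summed to 1218 TPM in MCF10AT1 and 366 TPM in MCF10DCIS. In RNA from a whole culture, fewer cells expressing a gene and less RNA of it per cell cannot be told apart.

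Structural and other small non-coding RNA took 60.0% of the TPM of MCF10AT1 and 66.0% of that of MCF10DCIS, and 1 gene, RN7SL1, the RNA of the signal recognition particle, took 33.3% and 41.8%. Ribosomal protein genes took 7.85% and 6.82%, and mitochondrially encoded genes 0.858% and 0.675%. All other genes shared 31.3% of the TPM in MCF10AT1 and 26.5% in MCF10DCIS. Since TPM is a share of a fixed total, this gap lowers most genes of MCF10DCIS on the deposited scale. Differences were therefore also computed on a rescaled scale, on which the genes outside these classes sum to 1000000 TPM in each line, and list counts are given on both.

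On the deposited scale 424 of the 12353 genes (3.43%) were counted higher in MCF10DCIS and 985 (7.97%) lower, 11.4% in either direction, and the median difference of all genes was -0.32. On the rescaled scale 806 of 12184 genes (6.62%) were higher and 911 (7.48%) lower, 14.1% in either direction, with a median of -0.14. The share of counted genes that were higher was thus 30.1% on the deposited and 46.9% on the rescaled scale, and 58.6% after median-of-ratios scaling. The list counts below are to be read beside the shares over all genes on the same scale. Presence at 1 TPM, though not the level, was mostly shared: 10985 genes reached 1 TPM in both lines, 459 in MCF10DCIS only and 909 in MCF10AT1 only. At the limit for entry, LRRCC1 (1.0016 TPM in MCF10AT1) and OASL (1.0018 TPM in MCF10AT1) were just inside, and ZKSCAN2-DT (0.99958 TPM in MCF10AT1) and RN7SKP95 (0.9996 TPM in MCF10DCIS) just outside.

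**Figure D1:**
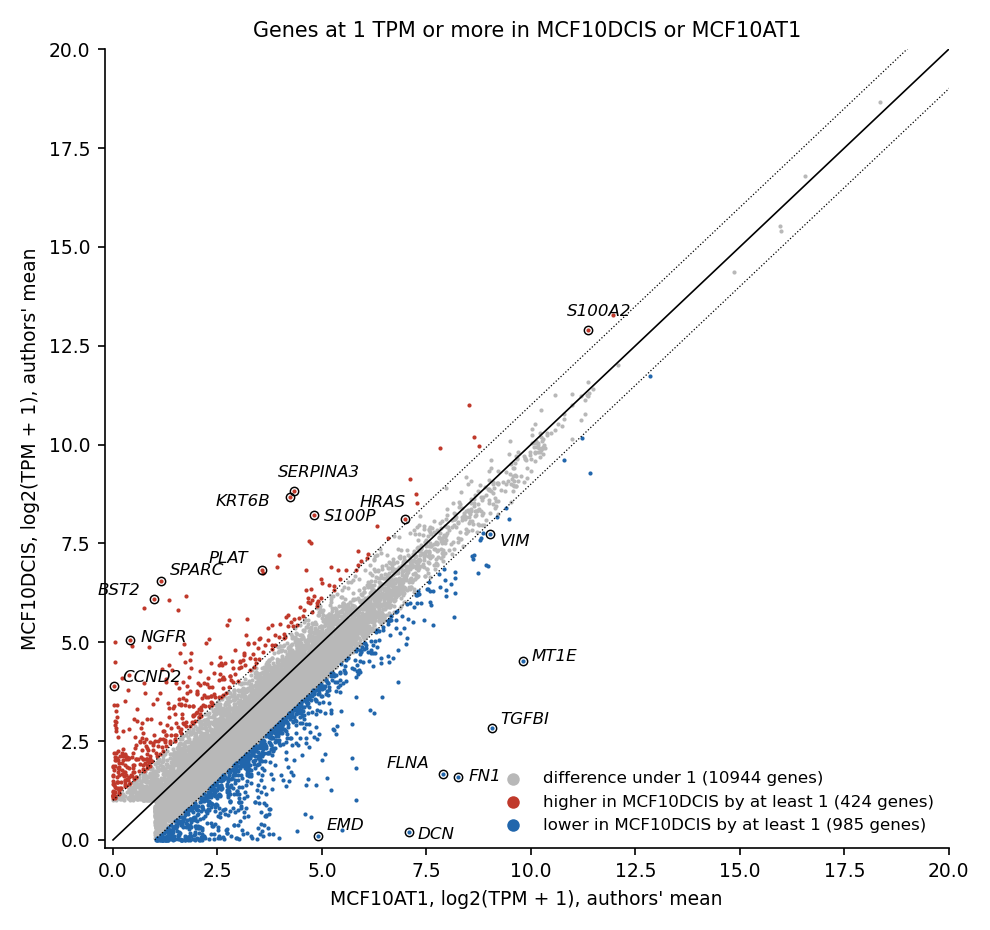
Each point is 1 gene with at least 1 TPM in MCF10DCIS or MCF10AT1, placed by the authors' mean as log2(TPM + 1) in MCF10AT1 (horizontal axis) and MCF10DCIS (vertical axis), with the solid line at equality and dotted lines at a difference of 1. The 985 genes in blue are lower in MCF10DCIS and the 424 in red higher, with DCN, FN1, TGFBI, FLNA and EMD far below the line and SPARC, BST2, NGFR, KRT6B and SERPINA3 far above it.

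Extracellular matrix genes led the genes that were lower in MCF10DCIS. DCN, which encodes the collagen-binding proteoglycan decorin, was at 0.163 TPM in MCF10A, 134 TPM in MCF10AT1, 0.142 TPM in MCF10DCIS and 0.126 TPM in MCF10CA1a, a difference of -6.88. FN1, the matrix glycoprotein fibronectin, was at 5.03, 303, 2.01 and 3.89 TPM in the same order of lines, a difference of -6.66. Both were high in MCF10AT1 alone among the 4 lines. TGFBI, a secreted matrix protein induced by TGF-beta, was at 116, 536, 6.11 and 78.2 TPM, a difference of -6.24, so that MCF10DCIS was the lowest of the 4 lines. IGFBP7, a secreted insulin-like growth factor binding protein, was at 55.1 TPM in MCF10AT1 and 1.01 TPM in MCF10DCIS, and LTBP1, which binds latent TGF-beta in the matrix, at 35.9 and 1.41 TPM.

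Many other leading genes on the lower side were high in MCF10A as well as in MCF10AT1. FLNA, the actin crosslinker filamin A, was at 132 TPM in MCF10A, 236 TPM in MCF10AT1, 2.18 TPM in MCF10DCIS and 3.47 TPM in MCF10CA1a, a difference of -6.22. EMD, the nuclear envelope protein emerin, was at 24.5, 28.9, 0.0750 and 0.0538 TPM, a difference of -4.80. VSTM2L was at 147, 43.6, 0.191 and 0.204 TPM, and ZBTB16, a zinc finger transcription factor, at 11.1, 13.2, 0.114 and 0.0365 TPM. In these 4 genes both later lines were low. MYADM was low in MCF10DCIS alone, at 38.9 TPM in MCF10A, 14.7 TPM in MCF10AT1, 0.0396 TPM in MCF10DCIS and 15.1 TPM in MCF10CA1a. MSLN, the surface protein mesothelin, stood at 92.0 TPM in MCF10A, 12.3 TPM in MCF10AT1 and 0.109 TPM in MCF10DCIS, and PLAC8 at 63.7, 23.4 and 0.587 TPM. LCP1, the actin bundler L-plastin, was at 15 TPM in MCF10A, 25.9 TPM in MCF10AT1 and 0.501 TPM in MCF10DCIS, whereas S1PR3, a sphingosine-1-phosphate receptor, was lower in MCF10A than in MCF10AT1, at 3.48 TPM in MCF10A, 20.2 TPM in MCF10AT1 and 0.176 TPM in MCF10DCIS.

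The genes that led on the higher side came from several functions. SPARC, a secreted matricellular glycoprotein, was at 0.203 TPM in MCF10A, 1.22 TPM in MCF10AT1, 92.9 TPM in MCF10DCIS and 31.7 TPM in MCF10CA1a, a difference of 5.40. BST2, the antiviral membrane protein tetherin, was at 0.831, 0.977, 67.0 and 83.2 TPM, a difference of 5.10. NGFR, the low-affinity nerve growth factor receptor and a basal marker of the breast, was at 0.162, 0.323, 32.6 and 19.3 TPM, a difference of 4.67. PLAT, tissue plasminogen activator, was at 0.619, 10.9, 113 and 294 TPM, a difference of 3.27, and GPX2, a glutathione peroxidase, at 0.150, 0.300, 16.9 and 97.9 TPM, a difference of 3.79. In these 5 genes both MCF10DCIS and MCF10CA1a stood above MCF10A and MCF10AT1.

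Other leading genes were highest in MCF10DCIS of the 4 lines. CCND2, which encodes the cell cycle regulator cyclin D2, was at 0.00757 TPM in MCF10A, 0.0168 TPM in MCF10AT1, 13.9 TPM in MCF10DCIS and 0.0160 TPM in MCF10CA1a, a difference of 3.87. S100A1, a calcium-binding protein, was at 0.415, 0.0373, 31.2 and 0.197 TPM, a difference of 4.96. LEMD1 was at 7.12, 0.676, 57.8 and 6.78 TPM, and SERPINA3, a secreted serine protease inhibitor, at 60.0, 19.2, 449 and 89.9 TPM. CCND2 and S100A1 were near 0 in the other lines, whereas LEMD1 and SERPINA3 were not. In further genes MCF10AT1 was the low line: S100P was at 1041 TPM in MCF10A, 27.0 TPM in MCF10AT1, 297 TPM in MCF10DCIS and 1034 TPM in MCF10CA1a, PI3, the elastase inhibitor elafin, at 50.2, 1.92, 55.0 and 269 TPM, and KRT6B, a stress-associated keratin, at 70.8, 17.9, 405 and 256 TPM.

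**Figure D2:**
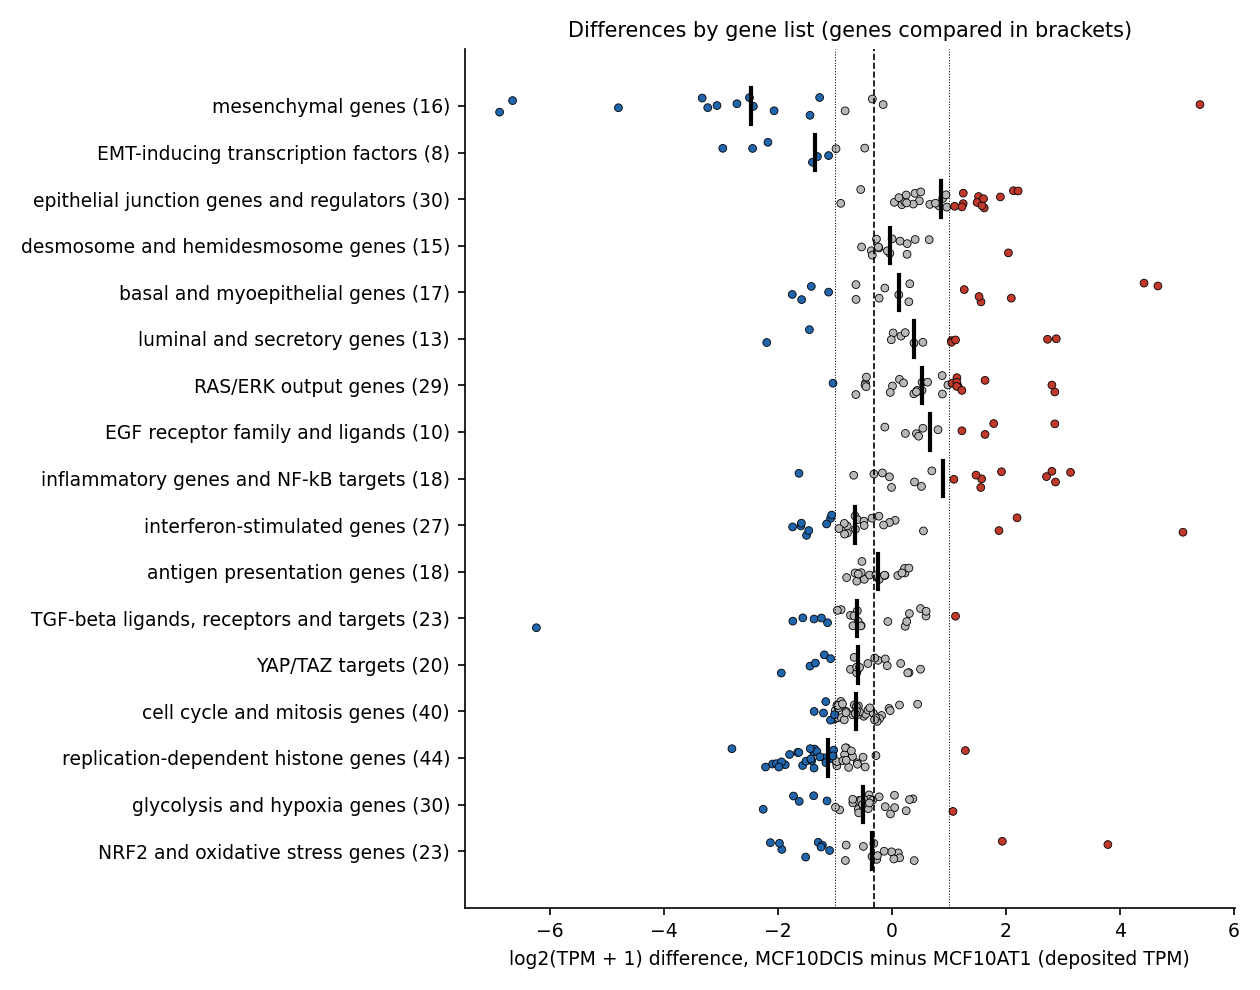
Each point is 1 gene of a list, placed by its log2(TPM + 1) difference between MCF10DCIS and MCF10AT1 on the deposited scale; black bars are list medians, the dashed line is the median of all genes (-0.32), dotted lines mark differences of 1 and -1, and red and blue points are counted higher and lower. Mesenchymal genes (median -2.47) and EMT-inducing factors (-1.35) lie to the left, and epithelial junction (0.86) and inflammatory genes (0.89) to the right.

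Mesenchymal genes stood lower in MCF10DCIS. Of 23 in the list, 16 were compared: 12 were counted lower and 1 higher on both scales, with a median of -2.47 deposited and -2.90 rescaled. Besides DCN, FN1 and IGFBP7, the lower genes included FBN1, the microfibril protein fibrillin-1, at 10.8 TPM in MCF10AT1 and 0.170 TPM in MCF10DCIS, and CDH2, N-cadherin, at 11.2 and 0.299 TPM. VIM, the intermediate filament protein vimentin, was at 4.56 TPM in MCF10A, 516 TPM in MCF10AT1, 213 TPM in MCF10DCIS and 74.1 TPM in MCF10CA1a. Its difference of -1.27 became -0.91 after median-of-ratios scaling, and MCF10DCIS still held far more VIM RNA than MCF10A. SPARC was the 1 mesenchymal gene counted higher. LOX, ACTA2 and COL1A1 differed by -0.82, -0.35 and -0.16, short of the step, and CDH11, THY1, PDGFRA, PDGFRB, LUM, COL1A2 and COL3A1 were under 1 TPM in both lines.

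The transcription factors that induce the mesenchymal state were lower with them: 6 of the 8 compared were counted lower and none higher on each scale, with a median of -1.35 deposited and -1.74 rescaled. ZEB2 was at 1.34 TPM in MCF10A, 7.70 TPM in MCF10AT1, 0.111 TPM in MCF10DCIS and 0.0264 TPM in MCF10CA1a, a difference of -2.97. FOXC2 was at 5.59 TPM in MCF10AT1 and 0.209 TPM in MCF10DCIS, TWIST1 at 23.6 and 4.45 TPM, TWIST2 at 8.76 and 2.71 TPM, and ZEB1 at 1.90 and 0.170 TPM. SNAI2, also a factor of basal breast cells, was at 14.1 and 5.98 TPM, a difference of -1.11 that was -0.97 rescaled. TCF4 was at -0.98 deposited and -1.15 rescaled, and SNAI1 was short of the step on both scales at -0.48 and -0.62.

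Genes of epithelial junctions and their regulators stood on the opposite side. Of 30 compared, 12 were counted higher and 0 lower on the deposited scale, and 17 and 0 on the rescaled scale, with medians of 0.86 and 1.12. No test stands behind the 0. RAB25, a small GTPase of apical recycling, was at 109 TPM in MCF10A, 23.5 TPM in MCF10AT1, 113 TPM in MCF10DCIS and 96.6 TPM in MCF10CA1a, a difference of 2.21. CLDN1, a tight junction claudin, was at 10.0, 4.08, 21.3 and 51.6 TPM, a difference of 2.13, and PRSS8, the membrane protease prostasin, at 75.9, 4.98, 21.3 and 18.6 TPM, a difference of 1.90. CLDN7 and SPINT1, an inhibitor of membrane serine proteases, differed by 1.62 and 1.61.

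CDH1, which encodes E-cadherin, was at 149 TPM in MCF10A, 21.3 TPM in MCF10AT1, 42.3 TPM in MCF10DCIS and 51.9 TPM in MCF10CA1a. Its difference of 0.96 fell just short of the step on the deposited scale and was 1.22 rescaled. EPCAM, an epithelial surface glycoprotein, likewise differed by 0.89 deposited and by 1.14 rescaled. All 30 genes and the 4 members under 1 TPM together summed to 2354 TPM in MCF10A, 628 TPM in MCF10AT1, 1202 TPM in MCF10DCIS and 1741 TPM in MCF10CA1a. TJP1, the scaffold ZO-1, went slightly the other way, at -0.55. The 250 bases before the RefSeq start were searched for 16 of the 30 genes. CDH1 and EPCAM had no window and were not among the 16. The E-box CACCTG, the letters that SNAI and ZEB proteins bind, was found on either strand in 6 (37.5%). It was found in 17.5% of 27305 genes and in 15.65% of the 9392 genes compared that had a window. That gap can come from the choice of the list. Among the 9 searched genes counted higher, the E-box was found in 2, CRB3 and RAB25.

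Desmosome and hemidesmosome genes did not stand with the junction genes. Of 15 compared, 1 was counted higher and 0 lower on both scales, and the median was -0.04 deposited and 0.20 rescaled, a change of sign between the scales. The 1 gene was ITGB4, the integrin subunit of hemidesmosomes, at 72.9 TPM in MCF10A, 136 TPM in MCF10AT1, 563 TPM in MCF10DCIS and 330 TPM in MCF10CA1a, a difference of 2.04. Its partner ITGA6 was at 93.1 and 147 TPM in MCF10AT1 and MCF10DCIS, a difference of 0.65. The plakin PLEC was at 146 TPM in both lines, and the desmosomal cadherin DSC2 was at 59.1 TPM in MCF10A, 5.96 TPM in MCF10AT1 and 4.76 TPM in MCF10DCIS.

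**Figure D3:**
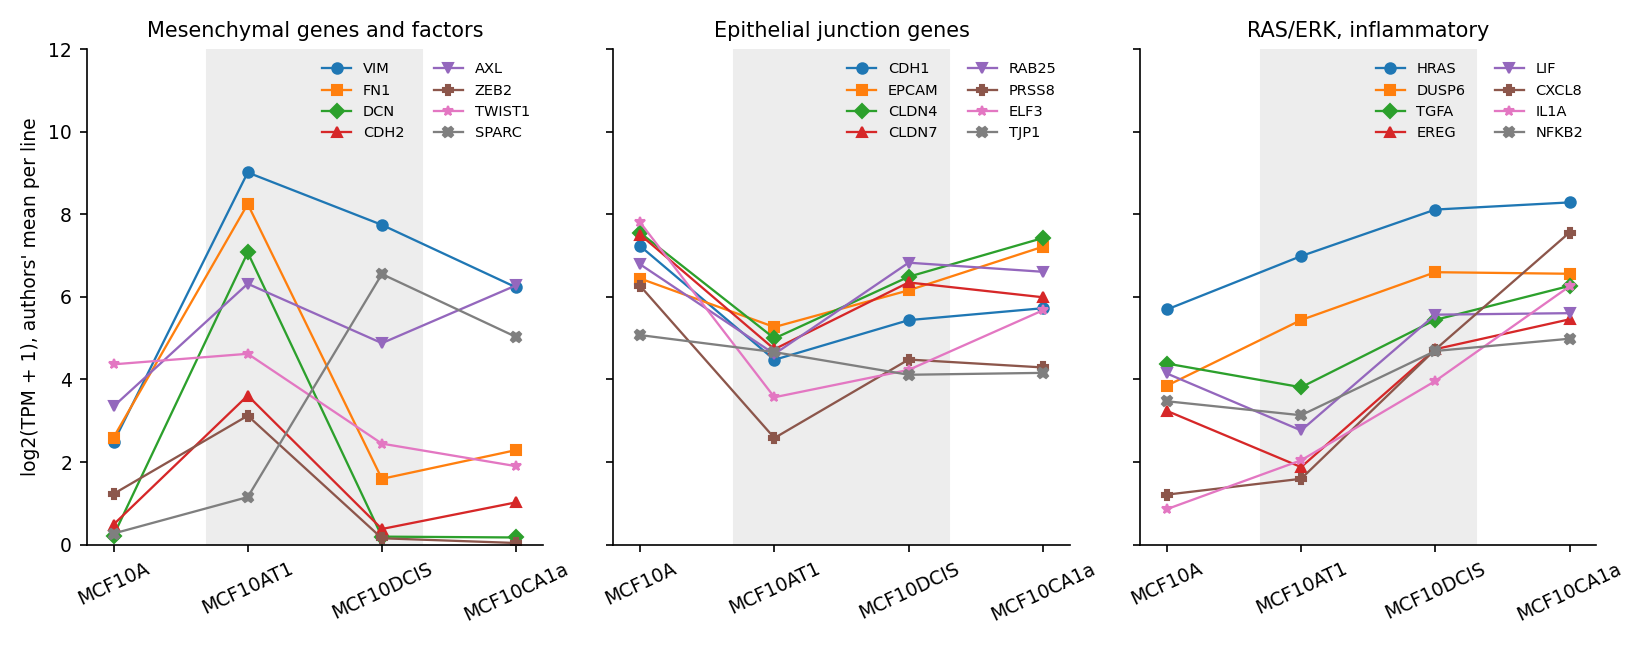
The authors' mean level of 8 genes per panel is shown as log2(TPM + 1) in the 4 lines, with 1 marker and colour per gene, thin lines joining its values and the compared lines shaded. FN1, DCN, CDH2 and ZEB2 are high in MCF10AT1 and near the other lines' low levels in MCF10DCIS, SPARC goes the other way, most junction genes are lowest in MCF10AT1, and LIF, EREG and CXCL8 are higher in MCF10DCIS.

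Basal and myoepithelial genes split. Of 17 compared, 6 were counted higher and 4 lower on the deposited scale, and 6 and 3 rescaled, with medians of 0.12 and 0.36. Besides NGFR and KRT6B, the higher genes included KRT17, at 227 TPM in MCF10AT1 and 971 TPM in MCF10DCIS, KRT15 at 395 and 1169 TPM, and the calcium-binding protein S100A2 at 2626 and 7570 TPM. KRT14, the partner of KRT5 in basal cells, went the other way, at 57.8 TPM in MCF10A, 24.6 TPM in MCF10AT1, 6.62 TPM in MCF10DCIS and 4.75 TPM in MCF10CA1a, a difference of -1.75. KRT5 itself differed by 0.12 and TP63, the master regulator of basal epithelium, by 0.31, at 4.81 TPM in MCF10AT1 and 6.22 TPM in MCF10DCIS. The contractile genes TPM2, at 193 and 63.5 TPM, and MYLK, at 2.89 and 0.457 TPM, were lower.

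Luminal and secretory genes were also mixed, with 5 of 13 counted higher and 2 lower on both scales and medians of 0.39 and 0.63. ALDH1A3, a retinaldehyde dehydrogenase, was at 69.1 TPM in MCF10A, 24.7 TPM in MCF10AT1, 188 TPM in MCF10DCIS and 466 TPM in MCF10CA1a, a difference of 2.88. LCN2, the iron-siderophore carrier lipocalin-2, was at 16.1, 1.42, 15 and 150 TPM, and SLPI, a secreted protease inhibitor, at 338, 38.4, 84.2 and 268 TPM. MUC1, the apical mucin, was at 123, 55.1, 11.2 and 0.438 TPM, a difference of -2.20, and CD24 at 299, 24.3, 8.27 and 30.6 TPM, a difference of -1.45. ESR1 and PGR, the oestrogen and progesterone receptors, were under 1 TPM in both lines. Of 11 epidermal differentiation and kallikrein genes compared, 3 were counted in each direction on the deposited scale and 6 higher and 3 lower rescaled. SPRR1B, a cornified envelope precursor, was at 1.99 TPM in MCF10AT1 and 10.8 TPM in MCF10DCIS, and KLK7, a kallikrein protease, at 223 TPM in MCF10A, 8.27 TPM in MCF10AT1 and 0.122 TPM in MCF10DCIS.

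Among genes of RAS/ERK output more were counted higher than lower in MCF10DCIS. Of 29 compared, 9 were counted higher and 1 lower on the deposited scale and 12 and 1 on the rescaled scale, with medians of 0.53 and 0.77. EREG, the EGF-like ligand epiregulin, was at 8.44 TPM in MCF10A, 2.67 TPM in MCF10AT1, 25.6 TPM in MCF10DCIS and 42.9 TPM in MCF10CA1a, a difference of 2.86. LIF, a cytokine of the interleukin-6 family, was at 16.7, 5.80, 46.5 and 47.7 TPM, a difference of 2.80. DUSP6, a phosphatase of ERK, was at 13.4, 42.4, 95.9 and 93.4 TPM, a difference of 1.16. For EREG and LIF the MCF10AT1 level was under that of MCF10A, whereas DUSP6 was higher in each of the other lines than in MCF10A. MYC and CCND1, abundant members of the list, did not reach the step, at -0.03 and -0.45, nor did AREG, the ligand amphiregulin, at 172 and 232 TPM. ETV1, an ETS transcription factor, was the 1 gene counted lower, at 2.93 and 0.917 TPM.

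Ligands of the EGF receptor family went with this list, with which they share AREG, EREG, HBEGF and TGFA. Of 10 receptors and ligands compared, 4 were counted higher and 0 lower on the deposited scale and 5 and 0 rescaled. TGFA, transforming growth factor alpha, was at 13 TPM in MCF10AT1 and 42.5 TPM in MCF10DCIS, a difference of 1.63, HBEGF, heparin-binding EGF-like growth factor, at 5.16 and 13.4 TPM, a difference of 1.23, and the ERBB4 ligand NRG4 at 0.446 and 3.98 TPM, a difference of 1.78. The receptors themselves were short of the step: EGFR was at 26.5 and 24.2 TPM, ERBB2 at 17.8 and 21.1 TPM and ERBB3 at 2.14 and 3.57 TPM.

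Of 18 inflammatory cytokine, chemokine and NF-kB target genes compared, 9 were counted higher in MCF10DCIS. NF-kB is a transcription factor family that carries cytokine and stress signals to promoters, and CXCL8, CXCL1 and CXCL3 are chemokines that attract neutrophils. The 250 bases before the RefSeq start (GRCh38.p14, credited to RefSeq) of 4 genes of the list that were counted higher are shown because each holds a match to the NF-kB letters GGAATTTCC or, on the other strand, GGAAATTCC, in capitals.
CXCL8 (chr4:73740319-73740568, plus strand): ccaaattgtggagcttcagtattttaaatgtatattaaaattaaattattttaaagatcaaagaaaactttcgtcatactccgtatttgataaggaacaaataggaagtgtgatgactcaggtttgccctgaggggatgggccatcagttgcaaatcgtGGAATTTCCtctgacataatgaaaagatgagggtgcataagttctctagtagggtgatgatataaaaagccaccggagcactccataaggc
CXCL1 (chr4:73869143-73869392, plus strand): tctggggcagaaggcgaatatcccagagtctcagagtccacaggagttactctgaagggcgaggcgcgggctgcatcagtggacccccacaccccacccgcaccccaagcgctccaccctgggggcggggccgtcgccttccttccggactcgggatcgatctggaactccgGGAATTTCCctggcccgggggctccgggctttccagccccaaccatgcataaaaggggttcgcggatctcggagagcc
CXCL3 (chr4:74038690-74038939, minus strand): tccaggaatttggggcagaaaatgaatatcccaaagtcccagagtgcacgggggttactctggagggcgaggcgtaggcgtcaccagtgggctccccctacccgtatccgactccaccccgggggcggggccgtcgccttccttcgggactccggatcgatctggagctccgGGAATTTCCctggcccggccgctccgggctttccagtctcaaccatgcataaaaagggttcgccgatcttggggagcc
ICAM1 (chr19:10270870-10271119, plus strand): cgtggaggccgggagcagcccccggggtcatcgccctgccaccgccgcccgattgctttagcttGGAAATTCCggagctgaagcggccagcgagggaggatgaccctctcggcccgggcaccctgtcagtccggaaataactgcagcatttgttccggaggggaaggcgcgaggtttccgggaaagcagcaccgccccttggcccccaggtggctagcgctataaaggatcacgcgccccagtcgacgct
The match begins 91 bases before the start of CXCL8, 78 bases before those of CXCL1 and CXCL3, and 186 bases before that of ICAM1. These letters were found in 7 of the 15 list genes with a window (46.7%), in 5 of the 8 counted higher, and in 0.439% of 27305 genes. The list was drawn up to hold NF-kB targets, so its share beside that of all genes is no evidence on the higher genes. NFKBIA and CXCL2, which hold a match too, were short of the step. NFKBIA was at 30.6 TPM in MCF10AT1 and 27.1 TPM in MCF10DCIS, and CXCL2 differed by 0.39.

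Of these 18 inflammatory genes, 9 were counted higher and 1 lower on the deposited scale and 10 and 1 on the rescaled scale, with medians of 0.89 and 1.23. LIF, with a difference of 2.80, is among the higher genes here and in the RAS/ERK output list, so these lists are not separate. CXCL8 was at 1.31 TPM in MCF10A, 2.02 TPM in MCF10AT1, 25.5 TPM in MCF10DCIS and 188 TPM in MCF10CA1a, a difference of 3.13. CXCL1 was at 2.06, 2.58, 22.5 and 31.6 TPM, a difference of 2.71, and IL1A, a pro-inflammatory interleukin, at 0.813, 3.12, 14.6 and 75.4 TPM, a difference of 1.92. For these genes the order of levels was MCF10A, MCF10AT1, MCF10DCIS, MCF10CA1a. ICAM1, an adhesion molecule for leukocytes, was instead high in MCF10DCIS alone, at 0.376, 0.0299, 6.52 and 0.178 TPM, a difference of 2.87. CSF1, macrophage colony-stimulating factor, was the 1 gene counted lower, at 8.89 TPM in MCF10AT1 and 2.19 TPM in MCF10DCIS. Other NF-kB targets were short of the step on both scales: TNFAIP2 differed by -0.67, TNFAIP3, which restrains the pathway, by -0.32, BIRC3 by -0.04 and the chemokine CCL20 by -0.01 on the deposited scale. IL6, TNF, PTGS2, CCL2, CSF2 and CSF3 were among the 11 members under 1 TPM in both lines.

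Interferon-stimulated genes did not go with the inflammatory genes. Interferons act through factors that bind the interferon-stimulated response element, whose core is GAAA, any 2 bases and GAAA again. The same windows of 4 genes, 2 counted higher and 2 lower, are shown with their core matches on either strand in capitals.
BST2 (chr19:17405631-17405880, minus strand): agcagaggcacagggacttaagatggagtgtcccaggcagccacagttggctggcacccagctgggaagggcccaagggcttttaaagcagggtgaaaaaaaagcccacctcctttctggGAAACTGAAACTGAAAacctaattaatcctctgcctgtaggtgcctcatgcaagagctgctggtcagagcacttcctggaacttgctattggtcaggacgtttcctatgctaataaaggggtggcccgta
IFITM1 (chr11:313790-314039, plus strand): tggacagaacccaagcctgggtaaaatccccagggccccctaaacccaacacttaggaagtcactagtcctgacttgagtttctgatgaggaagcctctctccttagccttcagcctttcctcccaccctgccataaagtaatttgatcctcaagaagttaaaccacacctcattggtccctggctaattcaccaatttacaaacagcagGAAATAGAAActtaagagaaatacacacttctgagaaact
ISG15 (chr1:1013247-1013496, plus strand): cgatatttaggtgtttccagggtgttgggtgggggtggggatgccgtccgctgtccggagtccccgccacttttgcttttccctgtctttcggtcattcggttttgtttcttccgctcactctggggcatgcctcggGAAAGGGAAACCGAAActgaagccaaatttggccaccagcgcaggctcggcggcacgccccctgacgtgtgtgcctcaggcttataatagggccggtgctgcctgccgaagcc
IFI6 (chr1:27672193-27672442, minus strand): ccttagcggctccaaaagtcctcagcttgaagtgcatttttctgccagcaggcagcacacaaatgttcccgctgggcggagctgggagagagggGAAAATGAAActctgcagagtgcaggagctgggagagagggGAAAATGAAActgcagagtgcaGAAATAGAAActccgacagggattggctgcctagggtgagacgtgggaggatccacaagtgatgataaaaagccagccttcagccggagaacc
BST2 holds 2 overlapping matches, 130 and 124 bases before its start, and ISG15 likewise 2, at 113 and 107 bases. IFITM1 holds 1, at 40 bases, and IFI6 holds 3, the farthest at 156 and the nearest at 93 bases. The core was found in 15 of the 21 interferon-stimulated genes with a window (71.4%) and in 3.07% of 27305 genes. That gap can come from the choice of the list. The core was found in 3 of 3 that were counted higher and in 6 of 8 that were counted lower, so genes on both sides hold it.

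Of 27 interferon-stimulated genes compared, 3 were counted higher and 8 lower on the deposited scale and 3 and 10 on the rescaled scale, with medians of -0.65 and -0.60. The 3 higher genes were BST2, ISG20, an exonuclease, at 3.24 TPM in MCF10AT1 and 18.4 TPM in MCF10DCIS, and IFITM1, a membrane protein that blocks virus entry, at 1.97 and 9.89 TPM. ISG15, a ubiquitin-like modifier, was at 9.05 TPM in MCF10A, 8.17 TPM in MCF10AT1, 2.24 TPM in MCF10DCIS and 14.5 TPM in MCF10CA1a, a difference of -1.50. IRF1, a transcription factor of the response, was at 12.5, 13.3, 3.74 and 13 TPM, and IFI6 at 0.827, 3.63, 0.529 and 4.12 TPM. These 3 were lowest in MCF10DCIS of the 4 lines. IFITM3, the most abundant member, was at 184 TPM in MCF10AT1 and 106 TPM in MCF10DCIS, short of the step. At least 5 TPM in either line left 3 genes counted lower, and 5 were lower after median-of-ratios scaling. Of 18 antigen presentation genes, none was counted in either direction on the deposited scale and 1, CD274, lower rescaled; the median was -0.25 deposited, -0.02 rescaled and 0.10 after median-of-ratios scaling, and B2M, the light chain of class I molecules, was at 303 and 261 TPM.

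Secreted matrix genes split, with several leading genes of both directions among them. Among all genes 3.43% were counted higher and 7.97% lower on the deposited scale, and 6.62% and 7.48% rescaled. Of 29 collagens, laminins and matricellular genes compared, 2 were counted higher and 6 lower on the deposited scale and 4 and 6 rescaled, and the median changed sign from -0.20 to 0.03. The 2 higher genes were SPARC and COL16A1, at 1.24 TPM in MCF10AT1 and 19.0 TPM in MCF10DCIS. Besides TGFBI and LTBP1, the lower genes included COL7A1, the anchoring fibril collagen, at 15.8 and 1.84 TPM, and COL6A1 at 2.90 and 0.269 TPM. The laminin-332 chain LAMB3 was at 105 and 205 TPM, a difference of 0.95 that was 1.20 rescaled. Among 11 integrins 1 was counted higher on both scales, ITGB4, and 1 lower, the fibronectin receptor subunit ITGA5, at 73.9 and 20.2 TPM.

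Among 16 matrix proteases, plasminogen system genes and inhibitors, 2 were counted higher and 5 lower on both scales. PLAT and ADAM8, a membrane metalloprotease at 6.51 TPM in MCF10AT1 and 27.0 TPM in MCF10DCIS, were the higher genes. The lower genes held both a protease and inhibitors: MMP2, gelatinase A, was at 17.6 and 1.83 TPM, TIMP1, an inhibitor of matrix metalloproteases, at 504 and 121 TPM, and TIMP2 at 28.0 and 6.29 TPM. PLAU, urokinase, was at 6.19 TPM in MCF10A, 13.6 TPM in MCF10AT1, 7.07 TPM in MCF10DCIS and 117 TPM in MCF10CA1a.

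Among genes of TGF-beta signalling more were counted lower than higher, as among all genes. On the deposited scale 3.43% of all genes were higher and 7.97% lower, and rescaled 6.62% and 7.48%, with medians of -0.32 and -0.14. Of 23 compared, 1 was counted higher and 6 lower on the deposited scale and 2 and 6 rescaled, with medians of -0.61 and -0.39. TGFB1, a ligand, was at 10.5 TPM in MCF10A, 21.9 TPM in MCF10AT1, 6.74 TPM in MCF10DCIS and 17 TPM in MCF10CA1a, a difference of -1.56. The receptor TGFBR1 was at 9.55 and 3.09 TPM in MCF10AT1 and MCF10DCIS, and the co-receptor TGFBR3 at 2.60 and 0.0791 TPM. INHBA, the activin A subunit, was the 1 counted higher on the deposited scale, at 5.79 and 13.7 TPM, and the ligand BMP2 joined it on the rescaled scale, at 1.04. Among 20 targets of the YAP and TAZ coactivators, 5 were counted lower and 0 higher on the deposited scale and 4 and 0 rescaled, with medians of -0.59 and -0.40. F3, tissue factor, was at 176 TPM in MCF10A, 84.2 TPM in MCF10AT1, 21.2 TPM in MCF10DCIS and 309 TPM in MCF10CA1a, a difference of -1.94, and AXL, a receptor tyrosine kinase, at 9.18, 78.8, 28.4 and 76.7 TPM, a difference of -1.44. CCN2, connective tissue growth factor, differed by -1.19, and by -0.88 after median-of-ratios scaling.

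Replication-dependent histone genes, whose RNA is made in S phase and as a rule lacks a poly(A) tail, stood lower in MCF10DCIS. Of 44 compared, 27 were counted lower and 1 higher on the deposited scale and 21 and 1 on the rescaled scale, with medians of -1.12 and -0.94, and 43 of the 44 were below 0 rescaled, beside 60.4% of all genes. After median-of-ratios scaling 17 were counted lower. H2BC14 was at 89.0 TPM in MCF10A, 85.6 TPM in MCF10AT1, 11.4 TPM in MCF10DCIS and 25.8 TPM in MCF10CA1a, a difference of -2.81. H3C1 was at 186, 201, 42.3 and 1.14 TPM, and H3C3 at 374, 426, 107 and 127 TPM. The abundant H2BC12 was at 731 TPM in MCF10AT1 and 373 TPM in MCF10DCIS, just short of the step. These genes are near-identical copies at many positions, so the counting could split their reads in ways not given in the sources used here.

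Cell cycle and mitosis genes were below 0 in 34 of 40 on the rescaled scale, on which 60.4% of all genes were. On the deposited scale 6 of the 40 were counted lower and 0 higher, with 3 and 0 rescaled and 1 and 0 after median-of-ratios scaling, with medians of -0.63, -0.46 and -0.33. E2F1, an S-phase transcription factor, was at 11.5 TPM in MCF10A, 7.01 TPM in MCF10AT1, 2.11 TPM in MCF10DCIS and 10.4 TPM in MCF10CA1a, a difference of -1.37. PCNA, the sliding clamp of DNA polymerase, was at 176, 110, 54.2 and 146 TPM, a difference of -1.01 that was -0.78 rescaled. BUB1B, a spindle checkpoint kinase, had the highest difference, 0.45. CCND2, described above, is not in this list. Shares over all genes were 3.43% higher and 7.97% lower on the deposited scale, and 6.62% and 7.48% rescaled. Among 20 cell cycle brakes and p53 targets 1 was counted in each direction on the deposited scale and 1 higher and 2 lower rescaled, where TP53INP1 stood at -1.01. The genes counted on both scales were GDF15, a stress-induced cytokine, at 20.3 and 42.6 TPM, and CDKN2C, an inhibitor of CDK4 and CDK6, at 9.28 and 3.02 TPM. CDKN2A and CDKN2B were under 1 TPM in both lines.

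Iron storage, metal-binding and redox genes held several abundant RNAs that were lower in MCF10DCIS. Across all genes 3.43% were counted higher and 7.97% lower on the deposited scale, and 6.62% and 7.48% rescaled. Of 23 targets of the oxidative stress factor NRF2 and related genes compared, 2 were counted higher and 8 lower on the deposited scale and 2 and 7 rescaled. FTH1, the ferritin heavy chain, was at 5236 TPM in MCF10A, 2746 TPM in MCF10AT1, 625 TPM in MCF10DCIS and 647 TPM in MCF10CA1a, a difference of -2.13, and FTL, the light chain, at 214, 489, 124 and 374 TPM. TXNRD1, thioredoxin reductase, was at 95.1 TPM in MCF10AT1 and 24.1 TPM in MCF10DCIS. GPX2 and UGT1A6, a glucuronosyltransferase at 1.74 and 9.46 TPM, were the genes counted higher, and NQO1, a quinone reductase, was at 232 and 182 TPM.

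The lists of central metabolism differed in how many genes reached the step. Over all genes 3.43% were counted higher and 7.97% lower on the deposited scale, and 6.62% and 7.48% rescaled. Of 30 glycolysis and hypoxia genes 1 was counted higher and 5 lower on both scales: HK2, hexokinase 2, was at 10.3 TPM in MCF10AT1 and 22.8 TPM in MCF10DCIS, while the glucose transporter SLC2A3 was at 3.87 and 0.0178 TPM, ADM, adrenomedullin, at 6.81 and 1.36 TPM and CA9, a hypoxia-induced carbonic anhydrase, at 15.6 and 4.38 TPM. GAPDH was at 2498 and 1760 TPM. Of 29 sterol and fatty acid synthesis genes 1 was counted on both scales, FASN, fatty acid synthase, at 127 TPM in MCF10A, 154 TPM in MCF10AT1, 368 TPM in MCF10DCIS and 176 TPM in MCF10CA1a, a difference of 1.25; the list's median changed sign, from -0.12 deposited to 0.09 rescaled. Of 24 amino acid response and unfolded protein genes, 0 were counted higher and 2 lower on the deposited scale and 1 and 2 rescaled. The higher gene was the pseudokinase gene TRIB3, at 0.76 deposited and 1.02 rescaled. The lower genes were STC2, a secreted glycoprotein hormone, at 29.9 and 8.51 TPM and PSAT1, an enzyme of serine synthesis, at 34.9 and 13 TPM, and the list's median changed sign from -0.04 to 0.20.

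Developmental signalling and chromatin genes showed isolated differences. The shares over all genes were 3.43% higher and 7.97% lower on the deposited scale, and 6.62% and 7.48% rescaled. Of 25 Notch and WNT genes, 1 was counted higher and 4 lower on the deposited scale and 5 and 4 rescaled, and the median changed sign from -0.04 to 0.17. WNT5A, a non-canonical ligand, was at 0.246 TPM in MCF10A, 6.11 TPM in MCF10AT1, 0.0752 TPM in MCF10DCIS and 0.0994 TPM in MCF10CA1a, a difference of -2.73, and the receptor NOTCH3 at 2.10, 5.97, 0.968 and 16.9 TPM, a difference of -1.82. Of 45 chromatin methylation and Polycomb genes 0 were counted higher and 2 lower on the deposited scale and 2 and 2 rescaled. The lower genes were UHRF1, a cofactor of maintenance DNA methylation, at 34.4 TPM in MCF10AT1 and 11.6 TPM in MCF10DCIS, and KMT2C, a histone H3 lysine 4 methyltransferase, at 6.58 and 2.50 TPM. The highest values of that list were KDM5B and DNMT3A, at 0.80 and 0.64 deposited and 1.07 and 1.00 rescaled. Of 17 HOX genes, 0 were counted higher and 1 lower on the deposited scale, HOXC6, at 3.44 and 0.716 TPM. On the rescaled scale 2 were counted in each direction, HOXB3 (1.37) and HOXC11 (1.08) higher and HOXC6 (-1.69) and HOXA2 (-1.23) lower, and of these HOXC6 alone was counted after median-of-ratios scaling.

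Genes of chromosome 9 were lower in MCF10DCIS as a group. Positions from RefSeq (GRCh38.p14) were matched for 11644 of the 12184 genes on the rescaled scale. The median difference of the 486 genes on chromosome 9 was -0.70, with 12 counted higher, 111 lower and 90.1% below 0, against a median of -0.14 and 60.4% below 0 over all genes. Chromosome 20 had a median of -0.40 and chromosome 15 of 0.22, and every other chromosome lay between. Against MCF10A, the median over chromosome 9 genes came to 0.58 in MCF10AT1 and 0.56 in MCF10CA1a but -0.10 in MCF10DCIS, so that on this chromosome MCF10AT1 and MCF10CA1a stood above MCF10A and MCF10DCIS did not. For chromosome 20 the medians against MCF10A were -0.11 in MCF10AT1, 0.19 in MCF10CA1a and -0.49 in MCF10DCIS. Of the genes named in the lists above as lower on the deposited scale, TGFBR1, TPM2, CA9 and PSAT1 lie on chromosome 9. E2F1 and PCNA lie on chromosome 20. Genes counted higher lie there too, LCN2 on chromosome 9 and SLPI and PI3 on chromosome 20. Whether the difference of such a gene goes with its chromosome or its list was not tested. No DNA measurement was analysed here.

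**Figure D4:**
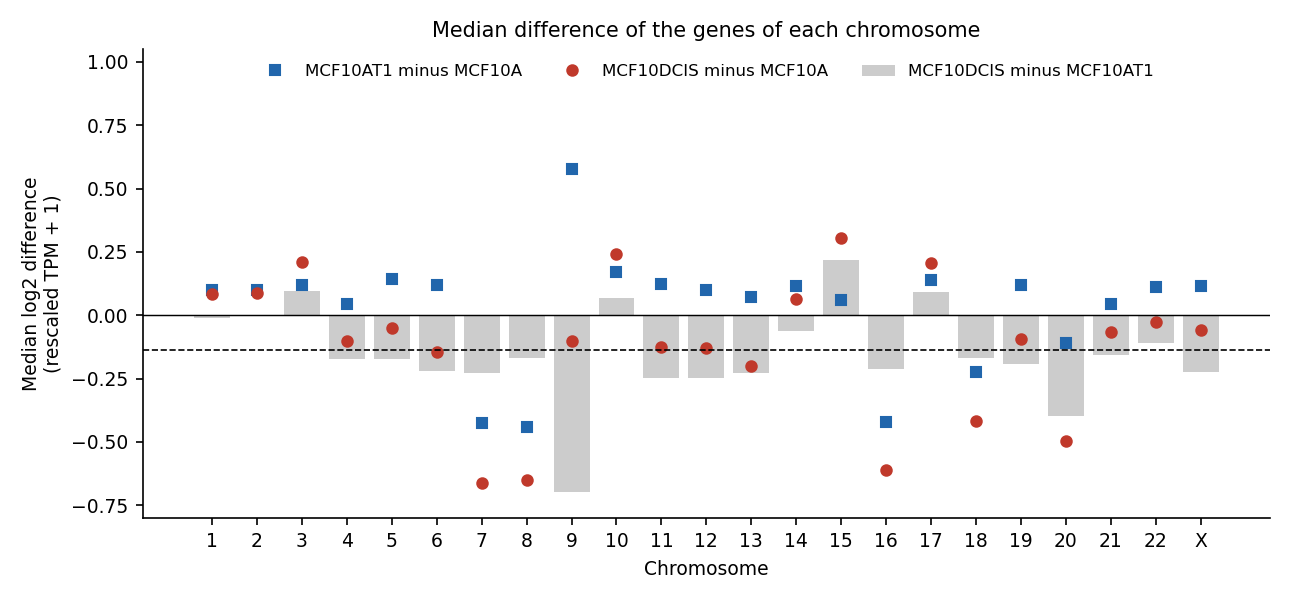
Bars give the median rescaled log2 difference between MCF10DCIS and MCF10AT1 for the genes of each chromosome, blue squares the median of MCF10AT1 minus MCF10A, red circles that of MCF10DCIS minus MCF10A, and the dashed line the median of all genes (-0.14). The bar of chromosome 9 is the deepest at -0.70, and its square (0.58) and circle (-0.10) lie far apart.

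The lower level ran along the whole of chromosome 9. In windows of 50 neighbouring genes, moved by 10 genes, the 1060 window medians ran from -0.93 to 0.55, and all 44 windows of chromosome 9 were below 0. Of the 52 windows under -0.6, 42 were on chromosome 9; the others included the histone cluster on chromosome 6, where the window that opens with H3C3 had a median of -0.80, and a stretch of chromosome 20 that opens with RPRD1B, at -0.75. The lowest window opened with TMEM38B (chr9:105694541-120801787), with 22 of 50 genes counted lower. Leading genes of the chromosome were S1PR3 and TOR4A, at 12.2 TPM in MCF10AT1 and 0.223 TPM in MCF10DCIS, then HRCT1 at 11.7 and 1.24 TPM, GCNT1, a glycosyltransferase of mucin-type glycans, at 10.2 and 1.61 TPM, and ST6GALNAC6 at 16.8 and 3.69 TPM. On the upper side, the window of chromosome 17 that opens with TSEN54 reached 0.55 and that of chromosome 1 that opens with PYGO2 reached 0.54.

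FLNA and EMD, both among the 20 leading lower genes, are neighbours on chromosome X, at chrX:154348531-154374634 and chrX:154379295-154381523, with no other compared gene between them. On the rescaled scale they differed by -6.35 and -6.18. The other 29 genes described around them had a median of -0.29 and ran from -2.63 to 1.89, with 3 counted higher and 1 lower. DNASE1L1, the next gene after EMD on the rescaled scale, which leaves out ribosomal protein genes, differed by 0.45. The lowest and highest of the 29, named after their values were seen, were MPP1, at 5.68 TPM in MCF10AT1 and 0.557 TPM in MCF10DCIS, and SLC6A8, the creatine transporter, at 10.4 and 33.3 TPM. The low level of FLNA and EMD was thus not reached by any of these 29 genes, and it was present in MCF10CA1a as well.

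**Figure D5:**
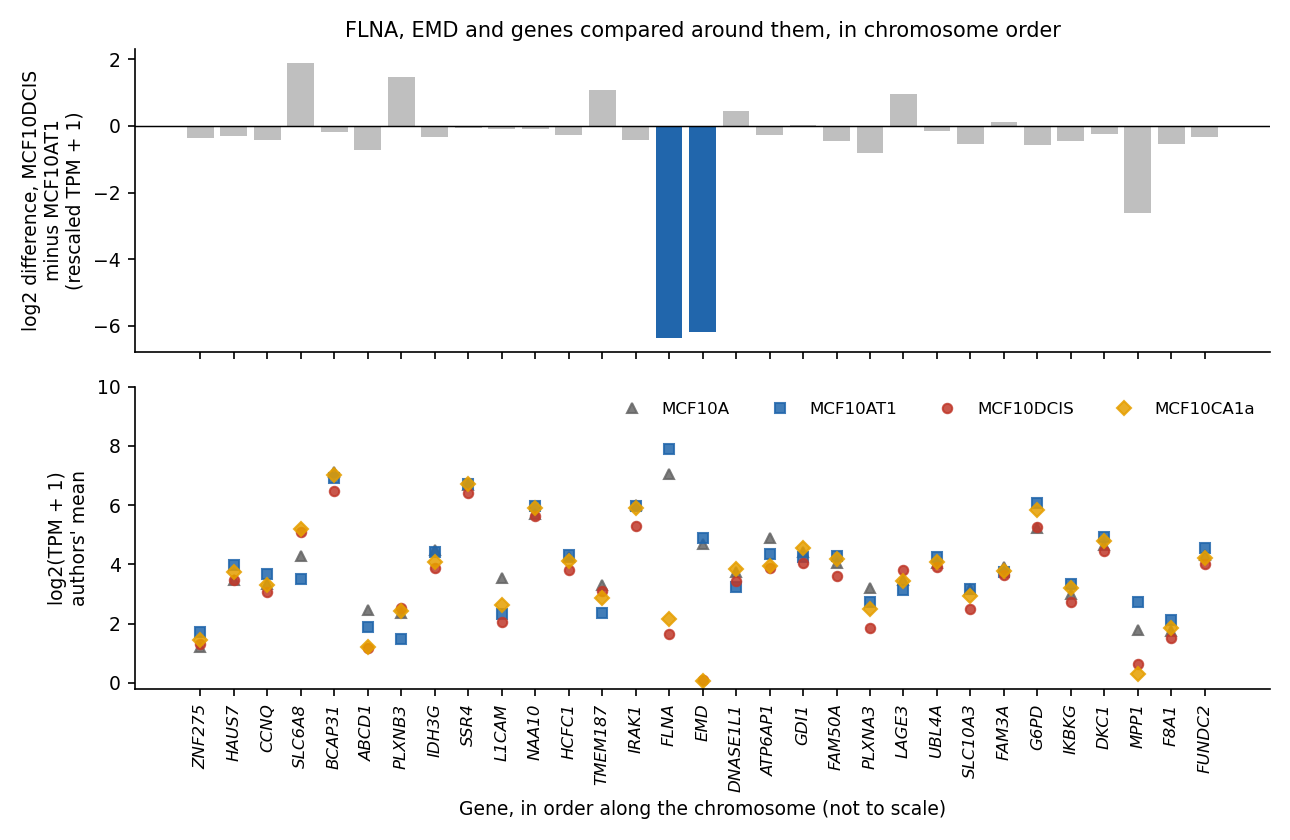
FLNA, EMD and 29 neighbouring genes are shown in chromosome order, not to scale, with the rescaled log2 difference between MCF10DCIS and MCF10AT1 as bars above and the authors' mean log2(TPM + 1) in each line below. The blue bars of FLNA (-6.35) and EMD (-6.18) stand apart from the grey bars of the neighbours, and below them MCF10DCIS and MCF10CA1a are low while MCF10A and MCF10AT1 are not.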

How the data were processed

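RNA of 4 MCF10 lines, 3 libraries each, was sequenced from total RNA with a stranded kit, per the labels' protocols. STAR, edgeR and hg38 are named in the submitters' processing notes; their versions, the counting program and the annotation used were not given in the sources used here. Values were deposited by the authors as TPM, in 1 mean column per line, so the planned limma fit on values per library could not be run and a rule of size was used. The members, gene lists and comparison were chosen with earlier results of these data known. From the deposited TPM, log2(TPM + 1) differences (pseudocount 1) were computed in Python 3.11.15 with pandas 2.3.3 and numpy 2.4.6, for genes with at least 1 TPM in either line. Rescaling left out structural and small non-coding RNA, mitochondrially encoded RNA and ribosomal protein genes; gene types came from GENCODE and positions and promoter windows from RefSeq (GRCh38.p14), matched by symbol. Where a symbol had several windows the most upstream was used; 9392 of the genes compared had one. Named genes were HRAS, CDH1, VIM, KRT5, KRT14 and TP63, the 20 highest and 20 lowest that reached 10 TPM or more in their higher line, and in each list up to 5 members each way and up to 3 abundant others, or any member of a list of at most 14. Genes named outside this rule, such as list members under 1 TPM or just short of the step, were chosen after their values were seen. A few genes are not reported here. The scripts were tested on simulated data. The alternatives were another pseudocount, 2 other filters, 3 other scalings and a larger step.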

Additional observations from a re-analysis of the deposited data

How the results depend on the processing

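With 1 mean per line no library could be left out, and the depth is unknown. No paired analysis was possible because the deposited columns are means per line and carry no replicate. The count of higher genes, 424 on the deposited scale, was 806 on the rescaled scale, 736 after median-of-ratios scaling, 698 after quantile normalization, 267 with at least 5 TPM in either line and 85 with a difference of at least 2. The count of lower genes, 985, was 519 after median-of-ratios scaling, 538 after quantile normalization, 1647 with a pseudocount of 0.1 and 148 with a difference of at least 2. The share of counted genes that were higher was 30.1% deposited, 46.9% rescaled, 58.6% after median-of-ratios scaling and 56.5% after quantile normalization. The median of all genes, -0.32, was -0.14 rescaled, -0.018 after median-of-ratios scaling, -0.045 after quantile normalization and -0.025 without the filter. Interferon-stimulated genes counted lower, 8, were 3 with at least 5 TPM and 5 under median-of-ratios and quantile scaling. Cell cycle genes counted lower, 6, were 3 rescaled and 1 under each of those scalings, and histone genes, 27, were 17 after median-of-ratios scaling. On the deposited scale the medians of chromosomes 9, 15 and 20 were -0.81, -0.015 and -0.55. The median of the adipocyte markers, a single gene after the filter, was -0.13 without it. Of 203 named or listed genes counted on the deposited scale, 190 were still counted rescaled, 172 after median-of-ratios scaling and 176 after quantile normalization, and 0 reversed in any of these. Rescaling and median-of-ratios scaling apply 1 factor per line, and the median of all genes moved by less than 1 under every scaling. A reversal of a difference of at least 1 could therefore hardly occur, and the 0 is no check. All 203 were bound to be kept with a pseudocount of 0.1, because a smaller pseudocount only widens a difference.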

Other observations

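S100 genes, small calcium-binding proteins encoded mostly in a cluster on chromosome 1, held some of the most abundant RNAs that differed. Of 14 compared, 5 were counted higher and 1 lower on the deposited scale and 6 and 1 rescaled, and their summed level was 6527 TPM in MCF10AT1 and 13984 TPM in MCF10DCIS. S100A14 was at 780 TPM in MCF10A, 365 TPM in MCF10AT1, 2066 TPM in MCF10DCIS and 851 TPM in MCF10CA1a, and S100A9, a neutrophil and keratinocyte alarmin, at 9.19, 3.95, 32.9 and 62.5 TPM, while its partner S100A8 was at 1.09 TPM in MCF10AT1 and 1.04 TPM in MCF10DCIS. S100A4, a marker of mesenchymal cells, was the 1 lower, at 72.6, 37.9, 5.87 and 5.24 TPM. Keratins split like the basal genes, with 7 of 15 counted higher and 2 lower on both scales: KRT81, a hair keratin, was at 2100 TPM in MCF10A, 434 TPM in MCF10AT1, 1002 TPM in MCF10DCIS and 7.87 TPM in MCF10CA1a, and KRT23 at 16.6, 0.413, 7.37 and 12.3 TPM, whereas KRT10 was at 18.5 TPM in MCF10AT1 and 4.31 TPM in MCF10DCIS. The families in this section were chosen after their values were seen.

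Metallothioneins, which bind zinc and copper, were lower in MCF10DCIS: all 4 compared were counted on the deposited scale and 2 rescaled. MT2A was at 2877 TPM in MCF10A, 7395 TPM in MCF10AT1, 3395 TPM in MCF10DCIS and 973 TPM in MCF10CA1a, and MT1E at 309, 894, 22.2 and 31.4 TPM. These genes are close copies of one another, so the split of reads between them is uncertain. The all-gene shares were 3.43% higher and 7.97% lower deposited, and 6.62% and 7.48% rescaled. Of 14 serpins, 5 were counted higher and 1 lower deposited and 6 and 2 rescaled. SERPINA1, alpha-1-antitrypsin, was at 16.7 TPM in MCF10AT1 and 48.5 TPM in MCF10DCIS beside SERPINA3, and SERPINE2 at 57.4 and 17.3 TPM. Among the APOBEC3 cytidine deaminases, neighbours on chromosome 22, APOBEC3G was at 0.0352 TPM in MCF10A, 0.225 TPM in MCF10AT1, 10.5 TPM in MCF10DCIS and 13.4 TPM in MCF10CA1a and APOBEC3F at 0.0106, 0.0400, 7.06 and 8.02 TPM, while APOBEC3B was at 11.7 TPM in MCF10AT1 and 4.05 TPM in MCF10DCIS.

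A short set of genes passed from under 1 TPM to at least 10 TPM between the lines. In MCF10DCIS but not MCF10AT1 these were 14 genes, among them APOBEC3G, BST2, CCND2, GPX2, MGP, NGFR, S100A1 and the calcium channel gene TRPV4. In MCF10AT1 but not MCF10DCIS they were 25, among them the matrix genes CCDC80, DCN and FBN1, the thrombin receptor F2R, the transcription factors FOXO1 and ZBTB16, and SRGN, the proteoglycan serglycin.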
